A study of Mus musculus with 12 samples.

Results

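Proteasome genes were read in MEL cells, a mouse erythroleukemia line. They were taken as every gene with a probe set of its own whose symbol starts with Psma, Psmb, Psmc, Psmd, Psme, Psmf or Psmg, each represented by its brightest probe set over the 6 arrays. The rule found 49 genes of the 18193 that had such a probe set, and 47 of the 49 lay above log2 4 in at least 3 arrays and were tested. The study made 3 hybridizations labelled wild type and 3 labelled G9a knockdown, numbered 1 to 3 in each group. All were grown under one stated protocol, with 2% DMSO for 4 days to induce erythroid maturation, and doxycycline (Dox) at 5 µg/ml switched on the knockdown. The label of every array, wild type included, carries the doxycycline text, which speaks only of inducing the knockdown, so it is not stated that wild type cells received it. The labels do not say how the knockdown was built into the line, or whether a number marks a culture of its own. A p-value here therefore covers only how far these 6 arrays scatter, and that scatter could be technical. Fewer cells of a type and less RNA per cell cannot be told apart in such bulk samples.

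The proteasome is the protease that degrades proteins tagged with ubiquitin. A barrel-shaped core of alpha and beta rings holds the cutting sites, and a regulatory cap made of a base and a lid binds, unfolds and strips the tagged protein before it enters. In maturing red cell precursors it takes part in clearing proteins that the mature cell no longer needs. Interferon can switch in the immunoproteasome beta subunits, which change the peptides that are made for antigen presentation.

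The arrays matched their labels. Ehmt2, which encodes the histone methyltransferase G9a, stood at 9.92, 10.03 and 10.23 on the wild type arrays, in the order of replicates 1 to 3, and at 6.67, 7.33 and 7.58 in the knockdown. The groups were far apart, and Ehmt2 fell with the replicate number as a block (difference −2.87, limma adjusted p = 0.0316). The call of this probe set ended without the block (limma adjusted p = 0.0719) and when any one replicate pair was left out (0.0518 to 0.277). A second Ehmt2 probe set differed by −2.86 (limma adjusted p = 0.0278). It was still called without the block (0.0216) and without the replicate 3 pair (0.0444), but not without the replicate 1 pair (0.277) or the replicate 2 pair (0.142). All 8 erythroid markers measured passed the filter, at means of 7.85 to 13.33. Of the 25 markers of other cell types measured, 3 passed: Csf1r, Itga2b and Pf4. The 4 markers listed as dendritic or macrophage, from cells rich in immunoproteasome, were Cd74, H2-Aa, H2-Ab1 and Adgre1. They read at most 3.02 on any array, close to the array medians of 2.99 to 3.10. Csf1r, which was listed as myeloid and not among these 4, read 6.32 to 6.81. Levels below are GCRMA log2 values. Probe sets differ in how well they bind, so levels are compared between arrays and not between genes. Each difference is a log2 difference, knockdown minus wild type, fitted with the replicate number as a block.

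Proteasome genes read slightly lower in the knockdown, by amounts that no single gene's test resolved. Of the 47 tested, 41 had a negative difference, against 51.7% of all 17028 probe sets tested, and 6 a positive one. Their median difference was −0.12, and that of all probe sets −0.0083. None passed the threshold of 0.05 after Benjamini-Hochberg adjustment over all probe sets (0 of 47, with 0.0117% of all probe sets called, both of them Ehmt2). The limma adjusted p-values of the 47 lay between 0.271 and 0.989. At an unadjusted p under 0.05 there were 4 lower and 0 higher, where 7.24% of all probe sets were lower and 6.44% higher, and the share of 4 in 47 is near that background. These 4 were Psme3, Psmb5, Psmd14 and Psmc5. Without the block 1 of the 47, Psme3, was lower at an unadjusted p under 0.05 (3.28% of all probe sets), and 0 passed after adjustment (0.00587% of all, lowest limma adjusted p = 0.82). The typical 95% interval reached 0.28 to either side of the estimate, wider than the median difference itself.

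**Figure D1:**
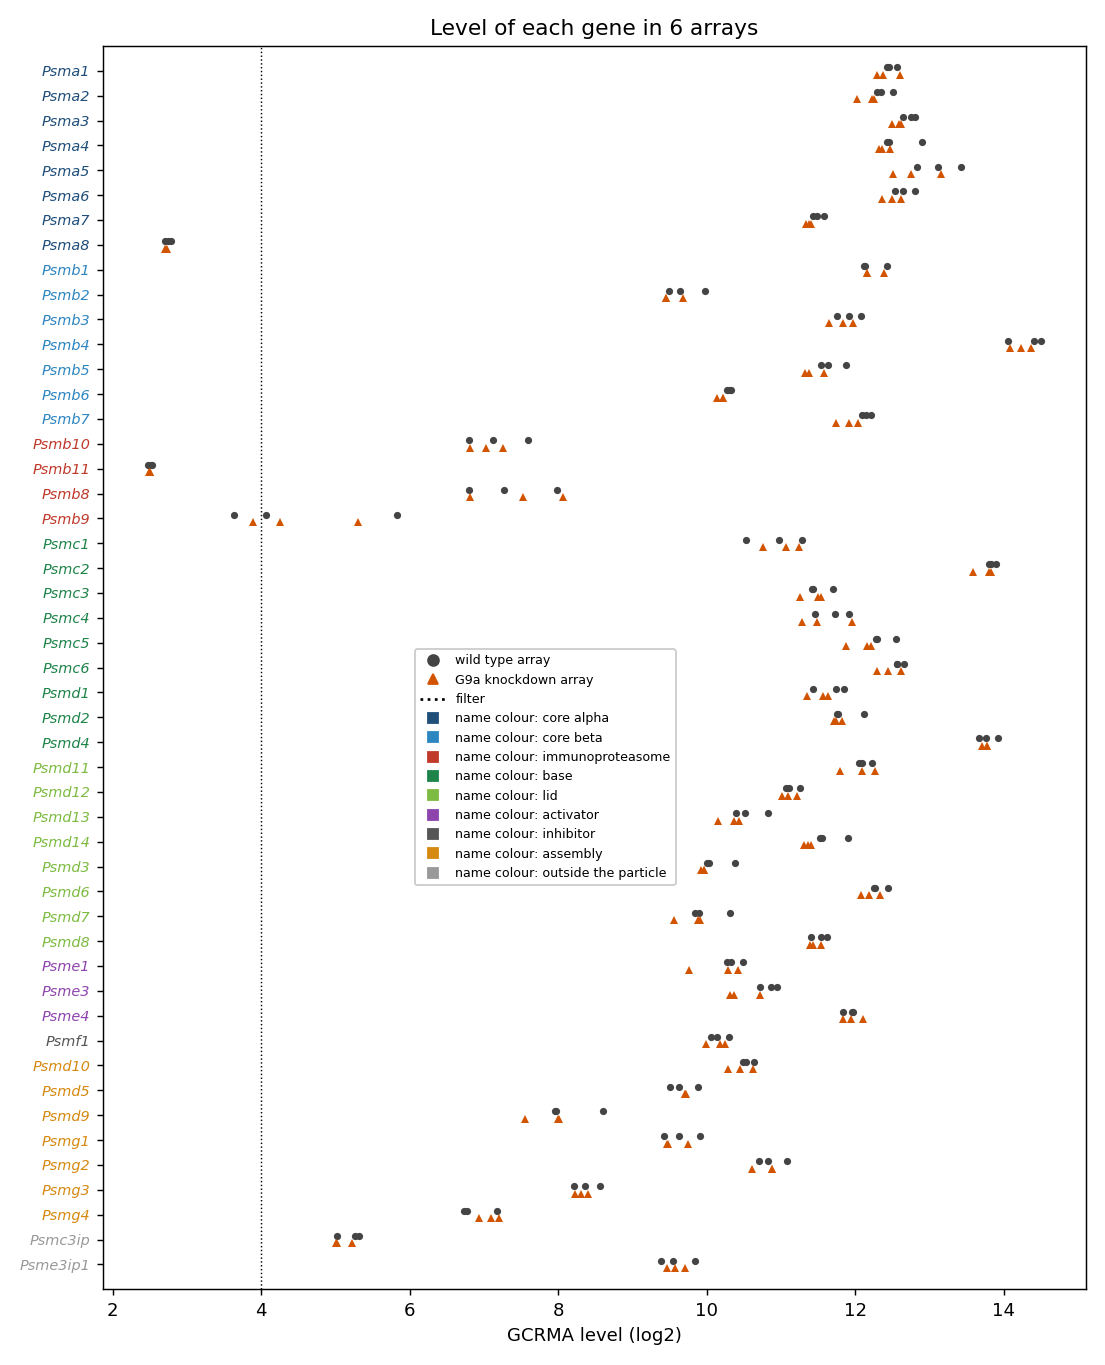
GCRMA level (log2, horizontal axis) of each of the 49 genes in the 3 wild type arrays (circles) and 3 knockdown arrays (triangles). Gene names are coloured by role, and the dotted line is the filter at log2 4. Psma8 and Psmb11 lie below the filter in all arrays, and for most genes the triangles lie slightly to the left of the circles.

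The shift was uneven between arrays. In 34 of the 47 genes wild type replicate 1 was the highest of the 6 arrays, against 30.3% of all probe sets, and in 22 knockdown replicate 2 was the lowest, against 20.0%. The median deviation of the 47 genes from their own means was 0.21 on wild type array 1, −0.0067 on array 2 and −0.0060 on array 3, and 6.01e-04, −0.14 and −0.049 on knockdown arrays 1 to 3. Over all probe sets these medians lay between −0.017 and 0.052, with wild type replicate 1 again the highest. Within the pairs, the median difference was −0.21, −0.13 and −0.047 for replicates 1, 2 and 3, against −0.047, −0.0023 and 0.016 over all probe sets. Negative differences were found in 39, 32 and 28 of the 47 genes in those pairs, against 57.6%, 50.4% and 47.8% of all probe sets. Leaving out both replicate 1 arrays gave 34 negative of 47, against 47.4% of all probe sets, with a median of −0.095. Leaving out wild type replicate 1 alone, without the block, gave 32 of 47 against 47.7%, with a median of −0.064. Negative differences remained the majority without that array, at a smaller size.

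Fewer genes kept one sign throughout. In 17 of the 47 all 3 pairs were lower in the knockdown (20.6% of all probe sets), and in 1, Psmg4, all 3 were higher (17.3%). In 9 every knockdown array lay below every wild type array (7.33%), and in 0 above (5.04%). These 9 were Psma2, Psma3, Psma7, Psmb6, Psmb7, Psmc5, Psmd3, Psmd14 and Psme3. Among all 3662 tested probe sets with a mean above log2 10, 52.5% had a negative difference, the median was −0.011, and 23.7% were lower in all 3 pairs.

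**Figure D2:**
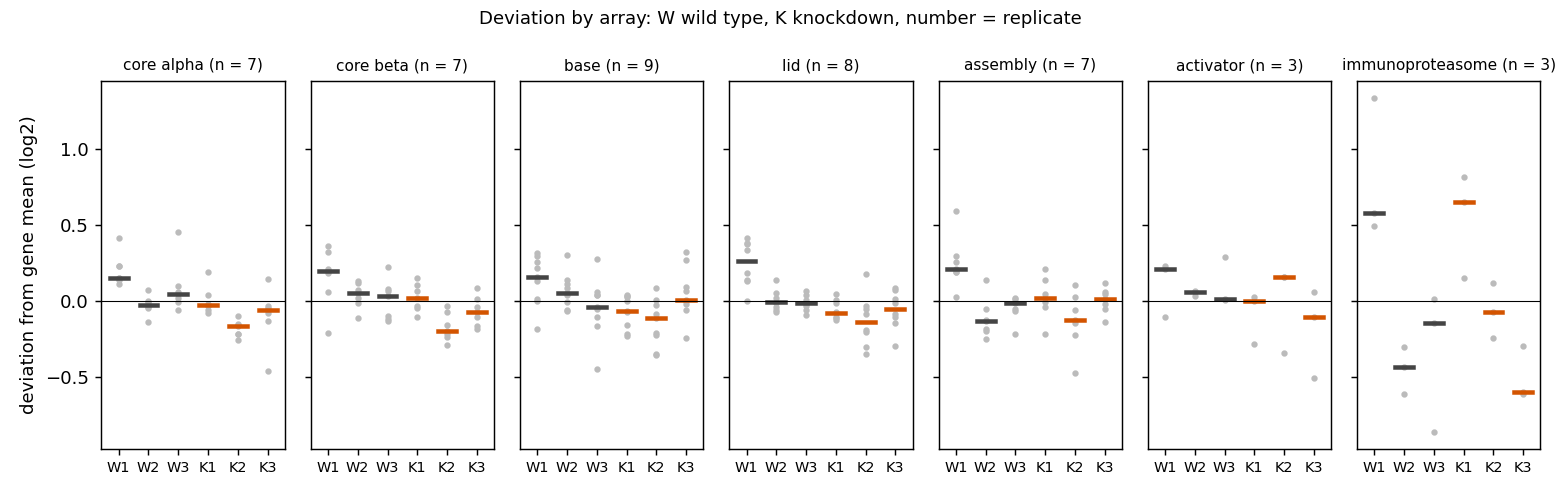
Deviation of each gene from its own mean over the 6 arrays (log2, vertical axis), by array and role. Grey points are genes, and bars are the median in wild type (dark) and knockdown (orange) arrays. Wild type replicate 1 is high in each group shown (medians 0.16 to 0.58), and the immunoproteasome genes are high in both replicate 1 arrays.

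The core alpha ring genes, whose products form the gated outer rings of the barrel, all lay on the negative side. Differences of all 7 tested were negative, from −0.32 to −0.056 (median −0.17), and 5 were lower in all 3 pairs. Psma5 had the largest of these differences. On the wild type arrays it read 13.12, 12.83 and 13.42, and on the knockdown arrays 13.16, 12.75 and 12.51 (difference −0.32, SE 0.20, limma adjusted p = 0.536). The groups overlapped, replicate 1 had almost the same value in both, and without the replicate 3 pair the difference was −0.020. A second Psma5 probe set differed by −0.37. Psma1, at the small end, read 12.57, 12.43 and 12.45 in wild type and 12.38, 12.30 and 12.61 in the knockdown. Its knockdown replicate 3 was the highest of the 6 arrays, and the 95% interval of its difference ran from −0.34 to 0.23. For Psma2 the knockdown arrays lay at 12.02 to 12.25 and the wild type arrays at 12.30 to 12.51, without overlap (difference −0.22, adjusted p = 0.43). Psma8, a testis form of an alpha subunit, was at 2.70 to 2.79 in all arrays, below the filter.

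The beta ring carries the cutting sites. Among the constitutive beta genes 6 of 7 differences were below 0 (median −0.11). Psmb5, which encodes the chymotrypsin-like subunit, read 11.88, 11.54 and 11.64 in wild type and 11.58, 11.32 and 11.38 in the knockdown. Every pair was lower in the knockdown, yet the groups overlapped because knockdown replicate 1 exceeded wild type replicate 2 (difference −0.26, SE 0.093, unadjusted p = 0.0341, limma adjusted p = 0.335). The other 2 catalytic subunits of the constitutive core had groups that did not overlap. Psmb7, the trypsin-like subunit, differed by −0.25 (adjusted p = 0.412), and Psmb6, the caspase-like subunit, by −0.11 (adjusted p = 0.634) and by 0.086 in MAS5, the opposite sign. Psmb1, a subunit without a cutting site, read 12.43, 12.12 and 12.14 in wild type and 12.39, 12.16 and 12.16 in the knockdown. Its difference of 0.0072 had a 95% interval of −0.23 to 0.24, and it was −0.072 in MAS5. The brightest of the 49 probe sets, that of Psmb4, stood at 14.07, 14.41 and 14.50 in wild type and 14.23, 14.08 and 14.37 in the knockdown. This probe set is of a kind that can also bind related transcripts, and its difference was −0.10 in GCRMA and 0.076 in MAS5.

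The immunoproteasome genes varied with the replicate number and had differences of either sign. Psmb8, which replaces Psmb5 in immune cells and under interferon, read 7.99, 6.81 and 7.28 in wild type and 8.07, 7.53 and 6.82 in the knockdown. Both replicate 1 arrays were above the other 4. Psmb9, which replaces Psmb6, read 5.84, 4.07 and 3.64 in wild type and 5.31, 4.26 and 3.89 in the knockdown. Here too both replicate 1 arrays stood highest, and with 4 arrays above log2 4 the gene only just passed the filter. Psmb10, which replaces Psmb7, read 7.59, 6.80 and 7.12 in wild type and 7.26, 7.03 and 6.81 in the knockdown, with replicate 1 the highest in each group. The 3 differences were 0.12, −0.029 and −0.14 (limma adjusted p 0.716 to 0.959). Their 95% intervals ran from −0.46 to 0.69 for Psmb8, from −0.47 to 0.42 for Psmb9 and from −0.51 to 0.23 for Psmb10. In each gene the spread within a group exceeded the difference between groups. The difference of Psmb9 was 0.22 without the replicate 1 pair and 0.63 without wild type replicate 1 in the unblocked fit, and its sign also turned without knockdown replicate 2 (0.086) or 3 (0.27). Psmb11, the form of thymus epithelium, was at 2.48 to 2.53 in all arrays.

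**Figure D3:**
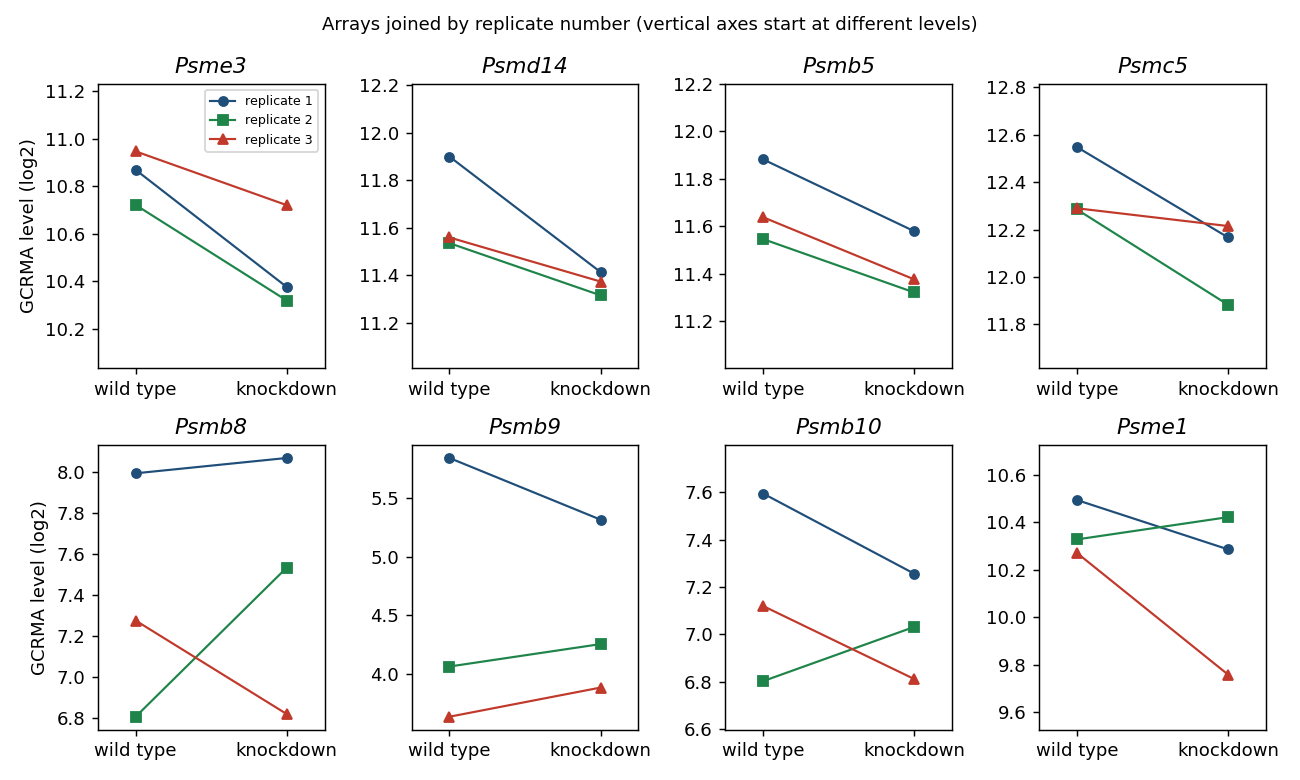
GCRMA level (log2, vertical axes that start at different values) of 8 genes in wild type and knockdown arrays, with lines joining arrays of the same replicate number. In the upper row all 3 lines of Psme3, Psmd14, Psmb5 and Psmc5 go down, and in the lower row the lines of Psmb8, Psmb9, Psmb10 and Psme1 go both ways.

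The base of the regulatory cap holds the ring of ATPases that unfolds substrates and the scaffold and receptor subunits that receive them. Here 8 of 9 differences were negative, with a median of −0.12, and 2 genes were lower in all 3 pairs. Psmc5, one of the ATPases, read 12.55, 12.29 and 12.29 in wild type and 12.17, 11.88 and 12.21 in the knockdown. The knockdown arrays all lay below the wild type arrays (difference −0.29, SE 0.11, unadjusted p = 0.0485, limma adjusted p = 0.363), and in MAS5 the difference was −0.13. Psmc1, another ATPase, went the other way with little precision. It read 10.98, 11.28 and 10.54 in wild type and 10.76, 11.07 and 11.25 in the knockdown, a difference of 0.093 (−0.44 to 0.62) that was −0.22 without the replicate 3 pair. The large scaffold genes Psmd1 and Psmd2 differed by −0.15 and −0.12, and the ubiquitin receptor gene Psmd4 by −0.032.

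The lid strips ubiquitin from the substrate. On the brightest probe set of each, all 8 lid genes taken by the naming rule had a negative difference in GCRMA and in MAS5. The medians were −0.16 and −0.19. Sem1, a lid gene outside that rule, went the other way (0.13 in GCRMA, limma adjusted p = 0.671, and 0.12 in MAS5). The other tested probe sets of these genes varied in sign. In GCRMA those of Psmd11 differed by −0.058, 0.071 and 0.21, that of Psmd6 by 0.014 and that of Psmd13 by −0.27. In MAS5 these differences were 0.028, 0.037 and 0.13, −0.044 and −0.045. Psmd14, the deubiquitinating enzyme of the lid, read 11.90, 11.54 and 11.56 in wild type and 11.41, 11.31 and 11.37 in the knockdown. The knockdown values lay close together and below all wild type values, of which replicate 1 stood apart (difference −0.30, SE 0.11, unadjusted p = 0.0382, limma adjusted p = 0.342). It was −0.29 in MAS5, and −0.18 without wild type replicate 1 in the unblocked fit. The scaffold gene Psmd3 had a larger difference in MAS5 (−0.40) than in GCRMA (−0.19). At the small end Psmd12 read 11.27, 11.06 and 11.12 in wild type and 11.02, 11.10 and 11.22 in the knockdown, and the difference of −0.033 had an interval of −0.32 to 0.25.

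The activators are alternative caps that open the core without ATP. Psme3, which encodes the nuclear activator PA28 gamma, had the largest negative difference of the 47 genes and the lowest p. It read 10.87, 10.72 and 10.95 in wild type and 10.38, 10.32 and 10.72 in the knockdown, so the highest knockdown array almost met the lowest wild type array. The level was 1.3-fold lower in the knockdown (difference −0.37, SE 0.10, unadjusted p = 0.0136, limma adjusted p = 0.271). Its second tested probe set differed by −0.41 (unadjusted p = 0.0413), and the MAS5 difference was −0.34 (adjusted p = 0.444). Psme1, a subunit of the interferon-inducible activator PA28, read 10.49, 10.33 and 10.27 in wild type and 10.29, 10.42 and 9.76 in the knockdown. Only knockdown replicate 3 was clearly low there, and without it the unblocked difference was −0.010. Psme4, which encodes the activator PA200, read 11.84, 11.97 and 11.95 in wild type and 11.94, 12.10 and 11.83 in the knockdown (difference 0.037, interval −0.23 to 0.30). Psme2, the partner of Psme1, shares its probe set with another gene and was not analysed here. The gene of the inhibitor PI31, Psmf1, read 10.30, 10.15 and 10.06 in wild type and 10.24, 10.18 and 9.99 in the knockdown, a difference of −0.033 that was 0.0048 in MAS5.

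Assembly factor genes had differences of either sign. Of 7, the difference was negative in 5 and positive in 2, with a median of −0.085, and 0 were lower in all 3 pairs. Psmd9, a chaperone of the base, read 8.61, 7.97 and 7.96 in wild type and 8.01, 7.55 and 8.002 in the knockdown. Its difference of −0.32 (adjusted p = 0.411) was −0.11 without wild type replicate 1 in the unblocked fit. Psmg4, a chaperone of the core, read 7.18, 6.74 and 6.77 in wild type and 7.20, 7.09 and 6.94 in the knockdown. It had the largest positive difference of the 47 genes (0.18, interval −0.094 to 0.46), and MAS5 gave −0.043. The rule also took in 2 genes whose products are not part of the particle. Psmc3ip, which acts in meiotic recombination, read 5.31, 5.27 and 5.03 in wild type and 5.23, 5.00 and 5.02 in the knockdown (difference −0.12). Its second tested probe set, of a kind that can bind several transcripts, differed by −0.44 in GCRMA (unadjusted p = 0.0282, limma adjusted p = 0.322) and by −0.96 in MAS5 (limma adjusted p = 0.374), without overlap between the groups in GCRMA. Psme3ip1, whose product binds PA28 gamma, read 9.85, 9.38 and 9.55 in wild type and 9.72, 9.58 and 9.47 in the knockdown (difference −0.0050). Without these 2 genes, 39 of 45 differences were negative.

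**Figure D4:**
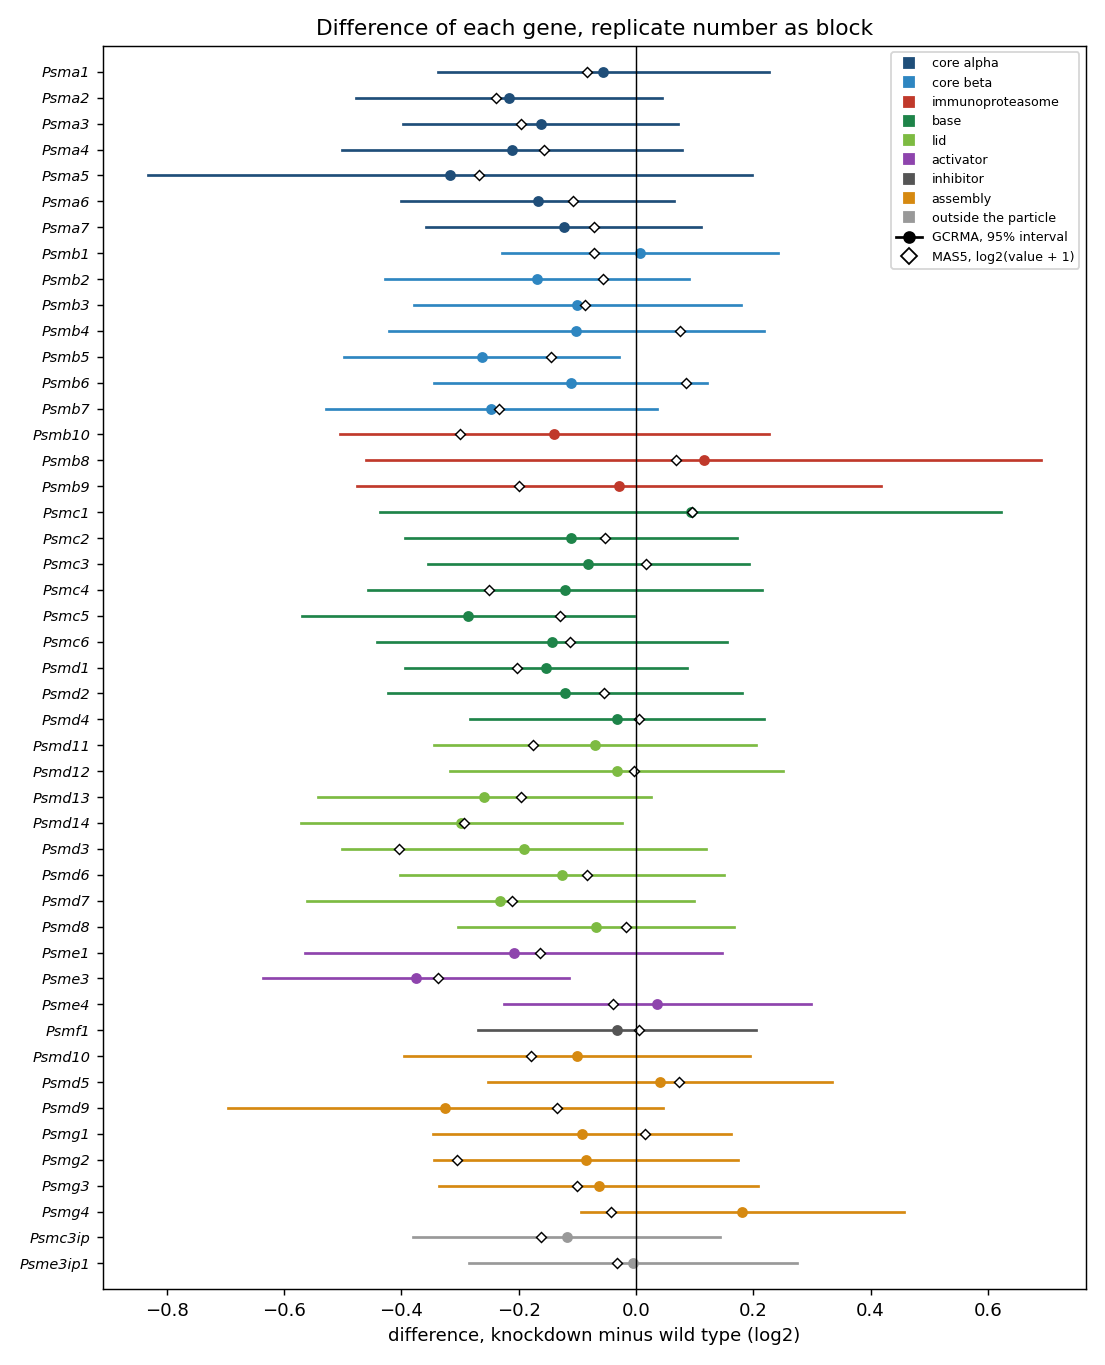
Log2 difference, knockdown minus wild type (horizontal axis), of the 47 tested genes in GCRMA (filled circles with 95% limma intervals, coloured by role) and in MAS5 (open diamonds). The points lie mostly left of 0 while 43 of the 47 intervals include 0.

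In MAS5, too, most proteasome genes read lower in the knockdown. The difference was below 0 in 38 of the 47 genes, against 47.9% of all probe sets, and the medians were −0.11 and 0.0100. The sign was that of GCRMA in 38 of 47. In MAS5 3 genes reached an unadjusted p under 0.05, all lower (5.06% of all probe sets), namely Psmd3, Psme3 and Psmd14, and 0 passed after adjustment (lowest limma adjusted p = 0.423, with 0.0% of all probe sets called). Across the 47 genes the GCRMA and MAS5 differences correlated at a Pearson r of 0.64, as a description, since both summaries come from the same arrays and genes are not independent replicates. Of 74 tested probe sets of these genes, 59 had a negative GCRMA difference. Among the 27 tested probe sets that did not represent their gene, 18 had the sign of the representative and 9 the opposite sign. Both further tested Psmf1 probe sets were among those of opposite sign. So were the Psmd11 probe sets with means of 10.59 (difference 0.071) and 8.66 (difference 0.21). Of the representatives, 5 were of the kinds that can bind several transcripts.

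The promoters of the 4 genes with an unadjusted p under 0.05, and of Psmb8 and Psmb9, which varied with the replicate number, are shown as the 250 bases before the start of transcription (RefSeq, GRCm38.p6, gene strand, 5′ to 3′). Capitals mark matches on either strand to the antioxidant response element TGACNNNGC, which NRF1 and NRF2 bind and which is known from proteasome promoters, to the CCAAT box, to the interferon-stimulated response element (TTTC, any 2 bases, and TTTC again), to the gamma-activated site TTCNNNGAA and to the ETS motif CCGGAAGT. They lie at chr11:101315963-101316212 (plus strand, Psme3), chr2:61711444-61711693 (plus, Psmd14), chr14:54617996-54618245 (minus, Psmb5), chr11:106255935-106256184 (plus, Psmc5), chr17:34197945-34198194 (plus, Psmb8) and chr17:34187331-34187580 (minus, Psmb9).
Psme3: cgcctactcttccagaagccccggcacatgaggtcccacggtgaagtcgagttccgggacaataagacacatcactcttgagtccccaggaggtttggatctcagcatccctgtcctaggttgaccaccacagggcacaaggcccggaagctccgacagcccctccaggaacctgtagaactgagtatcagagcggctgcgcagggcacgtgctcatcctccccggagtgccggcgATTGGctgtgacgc
Psmd14: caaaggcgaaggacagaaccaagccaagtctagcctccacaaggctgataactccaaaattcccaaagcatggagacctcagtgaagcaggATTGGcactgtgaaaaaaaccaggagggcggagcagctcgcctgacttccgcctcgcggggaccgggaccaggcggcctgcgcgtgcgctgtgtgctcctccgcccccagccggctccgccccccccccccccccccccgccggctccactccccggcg
Psmb5: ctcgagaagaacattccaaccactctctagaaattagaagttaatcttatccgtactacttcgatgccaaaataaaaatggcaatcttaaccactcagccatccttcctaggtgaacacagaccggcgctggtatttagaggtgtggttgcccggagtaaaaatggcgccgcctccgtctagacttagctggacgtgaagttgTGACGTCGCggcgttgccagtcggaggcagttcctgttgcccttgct
Psmc5: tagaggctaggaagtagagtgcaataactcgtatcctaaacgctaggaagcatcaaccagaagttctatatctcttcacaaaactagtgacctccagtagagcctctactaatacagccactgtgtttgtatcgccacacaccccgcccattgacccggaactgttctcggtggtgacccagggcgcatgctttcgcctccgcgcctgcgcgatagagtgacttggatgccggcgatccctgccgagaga
Psmb8: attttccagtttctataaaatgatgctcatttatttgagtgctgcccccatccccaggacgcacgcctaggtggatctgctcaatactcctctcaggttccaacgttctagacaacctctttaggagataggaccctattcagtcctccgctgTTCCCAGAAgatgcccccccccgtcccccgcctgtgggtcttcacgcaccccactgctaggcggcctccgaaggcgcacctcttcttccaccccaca
Psmb9: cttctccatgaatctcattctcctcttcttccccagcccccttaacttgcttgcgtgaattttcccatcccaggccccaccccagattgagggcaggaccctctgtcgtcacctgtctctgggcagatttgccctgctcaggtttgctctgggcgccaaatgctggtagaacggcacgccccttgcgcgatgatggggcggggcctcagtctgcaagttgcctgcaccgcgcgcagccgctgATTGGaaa
Of these 6 stretches, that of Psmb5 held an antioxidant response element, that of Psmb8 a gamma-activated site, and those of Psme3, Psmd14 and Psmb9 a CCAAT box, while that of Psmc5 held no match to these letters.

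Promoter sequences were matched for 41 of the 49 genes, and 39 of these encode proteins of the particle or its assembly. Their 41 promoters, which run from 250 bases before to 50 after each start, had the antioxidant response element in 14.6%, against 12.4% of all 32851 promoters and 14.7% of those of genes with a tested probe set. The 6 were those of Psmb5, Psmb6, Psmc6, Psmd12, Psmd9 and Psme4. A CCAAT box was found in 34.1% (37.4% of all promoters) and a gamma-activated site in 7.32% (8.30% of all). The ETS motif stood in 24.4% of them, against 3.89% of all promoters and 9.37% of those of tested genes. An interferon-stimulated response element stood in 12.2%, against 3.44% of all, in Psmb3, Psmd4, Psmd9, Psme1 and Psmg4. The median G+C content was 57.3%, between the 52.7% of all promoters and the 61.3% of those of tested genes. A match is a stretch of letters and not a measured site. In the RefSeq gene order, Psmb9 and Psmb8 lie on either side of Tap1, with Tap2 next to Psmb8, and Psmb5 lies next to Psmb11. Members otherwise did not neighbour each other and were spread over 16 chromosomes.

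Genes that work with the proteasome but lie outside the naming rule were taken from a list of ubiquitin and proteasome genes, of which 21 were measured, all above the filter. Their differences were negative in 14 and positive in 7, with a median of −0.036, and 0 passed after adjustment. At an unadjusted p under 0.05 there was 1 lower, Ufd1, and 1 higher, Ubqln4, where 7.24% of all probe sets were lower and 6.44% higher. Ufd1, a cofactor of the ATPase VCP, read 9.45, 9.46 and 9.44 in wild type and 8.88, 9.09 and 9.30 in the knockdown (difference −0.36, limma adjusted p = 0.316). Ubqln4, which shuttles ubiquitin-tagged proteins to the proteasome, read 8.47, 8.42 and 8.51 in wild type and 8.68, 8.96 and 8.89 in the knockdown (difference 0.38, adjusted p = 0.283, and 0.15 in MAS5). In both genes the groups did not overlap. Nor did they in Nfe2l1, Pomp, Vcp and Ubqln1, which makes 4 of the 21 lower (7.33% of all probe sets) and 2 higher (5.04%). Pomp, the maturation factor of the core, differed by −0.24 (adjusted p = 0.37, and −0.065 in MAS5), and Ubqln1 by 0.22 (adjusted p = 0.41). Nfe2l1 and Nfe2l2, which encode NRF1 and NRF2, differed by −0.11 and −0.20.

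Of 11 antigen presentation genes measured, 10 passed the filter, 6 with a negative and 4 with a positive difference, and a median of −0.015. None passed after adjustment. The 2 with an unadjusted p under 0.05 were both higher (6.44% of all probe sets) and were class I heavy chain genes. In the fit without the block and in MAS5, 0 of the 10 were higher at that p (2.59% and 5.5% of all probe sets). H2-D1 read 12.14, 11.57 and 11.55 in wild type and 12.24, 12.16 and 12.06 in the knockdown (difference 0.40, limma adjusted p = 0.313). H2-K1 read 11.34, 10.89 and 10.82 in wild type and 11.47, 11.34 and 11.28 in the knockdown (difference 0.34, adjusted p = 0.316). Both probe sets can bind related class I transcripts, and in both genes wild type replicate 1 overlapped the knockdown. Calr and Tapbp, which encode a chaperone and a bridging protein of peptide loading, differed by −0.34 and −0.14 (limma adjusted p = 0.405 and 0.550). In MAS5 they differed by −0.063 and −0.091. For Calr, knockdown replicate 3 read 13.5, and knockdown replicates 1 and 2 both read 14.2. The peptide transporter genes next to Psmb8 and Psmb9, Tap1 and Tap2, differed by 0.14 and −0.053. Beside these, 7 of the 8 erythroid markers had a positive difference, where 51.7% of all probe sets had a negative one. The median of the 8 was 0.19. At an unadjusted p under 0.05, 2 were higher (6.44% of all probe sets). These were Ermap (difference 0.74, limma adjusted p = 0.169, groups without overlap) and Klf1 (difference 0.40, limma adjusted p = 0.241). Slc4a1 had the negative difference (−0.16). The summed level of the 8 was 14.98 to 15.29 (log2) in wild type and 15.27 to 15.53 in the knockdown. Of the 5 megakaryocyte markers, Gp1bb, Gp9 and Vwf lay below the filter, while Itga2b differed by −0.71 (limma adjusted p = 0.226). Pf4, the other one above the filter, differed by −0.12 (limma adjusted p = 0.847), and its groups overlapped. The summed level of the 5, which is mostly Itga2b, was 11.86 to 12.17 in wild type and 11.05 to 11.66 in the knockdown. The part of these markers in the proteasome values was not tested.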

How the data were processed

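Each of the 6 hybridizations was deposited in both MAS5 and GCRMA form, so 12 columns were read, and the summaries were not counted as further replicates. Per the labels, the authors' MAS5 columns are intensity values, not logged (2% trimmed mean of 500 in every array), and their GCRMA columns hold log2 values. Their versions and settings: not given in the sources used here. Gene names came from the platform annotation. Of 45101 probe sets, 64 controls were left out, and 17028 above log2 4 in at least 3 of 6 arrays were tested with limma 3.58.1 in R 4.3.3 (lmFit, eBayes, group plus the replicate number as a block, Benjamini-Hochberg over all tested). The same fit was run on log2(MAS5 value + 1). Arrays carry no read depth, and 3 arrays a group limit the precision.

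The block followed the rule for these genes. Deviations from the group means correlated at 0.72, 0.57 and 0.37 for arrays sharing a number, and at −0.59 to 0.17 for the rest. Such deviations sum to 0 within a group, so a positive correlation forces a negative one elsewhere. The contrast is therefore partly built in. The pairing thus rests on the data, as no label explains the numbers. Fits without the block, with other filters, array weights, another variance prior, all probe sets, and with arrays or pairs left out were the alternatives. On simulated arrays of 17028 probe sets, the blocked fit called 38 of 100 log2 differences of 1 and 75 of 100 of 2. Differences as small as most of those given here were not simulated.

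Members, role groups and lists were chosen with earlier results of these data known. Psme3ip1 was given its group after the probe set names were read. Values in every array are given for members with an unadjusted p under 0.05, the extremes of each role group, the immunoproteasome and activator genes and the brightest member, and for Ehmt2. Of the 2 further lists, genes with such a p and the 4 lowest p-values are named. Psma2, Psmb6, Psmb7, Psmd1, Psmd2, Psmd3, Psmd4, Nfe2l1, Nfe2l2, Vcp, Sem1, Tap1, Tap2, Ermap, Klf1 and Slc4a1 were named in addition, after their values were seen. Promoters were RefSeq sequences.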

Additional observations from a re-analysis of the deposited data

How the results depend on the processing

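Over 16 alternatives the median difference of the proteasome genes stayed negative (−0.18 to −0.064), and 0 genes passed after adjustment in limma. Where the same 47 were tested above the filter, between 32 and 44 were negative, against 47.4% to 55.5% of all probe sets. With no filter 43 of all 49 genes were negative, but so were 74.4% of all 45037 probe sets. The count with an unadjusted p under 0.05 and lower in the knockdown was 4 of 47 with the replicate block (7.24% of all probe sets). It was 1 with no replicate block (3.28%), 6 with array weights (7.93%) and 7 with trend and robust (7.86%). With no filter it was 12 of all 49 genes, where 4.69% of all 45037 probe sets were lower. Only 17028 of those 45037 lay above the filter, against 47 of the 49 genes. The 2 shares are therefore of unlike sets and are not compared. Of the 74 tested probe sets of the members, 7 were lower at that p (7.24%). With arrays or pairs left out, the count of the 47 that were lower was 0 to 7 (2.57% to 7.73% of all probe sets). It was 0 without the replicate 1 pair (4.13%) or the replicate 2 pair (4.93%), and 7 without the replicate 3 pair (7.73%). The count higher was 0 to 1 in these fits (1.5% to 5.83% of all probe sets). The cause of these shifts was not tested. Leaving out arrays or pairs gave group medians of −0.23 to −0.095 for core alpha, −0.19 to −0.10 for core beta, −0.21 to −0.034 for the base, −0.24 to −0.077 for the lid, −0.14 to 0.027 for assembly (0.027 without wild type replicate 1), −0.25 to 0.43 for the immunoproteasome (0.43 without wild type replicate 1), −0.36 to −0.010 for the activators and −0.088 to 0.040 for the inhibitor. Over all tested probe sets of the members the medians were −0.069 for the lid, −0.11 for the activators and 0.020 for the inhibitor.

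At an unadjusted p under 0.05 in MAS5, the ubiquitin list had 0 genes higher and the antigen presentation list 0 (5.5% of all probe sets). The ubiquitin list had 1 lower there, Ufd1 (5.06%). With no replicate block the antigen presentation list also had 0 higher (2.59%). Counts this small in short lists are near those shares. The brighter Ehmt2 probe set lost its call at −2.87 with no replicate block and with no filter, at −2.46 in MAS5, and at −3.06 to −2.61 with arrays or pairs left out. The dimmer one kept it with no replicate block (limma adjusted p = 0.0216) and lost it with no filter (0.190) and in MAS5 (0.419).

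Signs of 12 single genes turned. In MAS5 these were Psmb1 (−0.072), Psmb4 (0.076), Psme4 (−0.039), Psmf1 (0.0048) and Psmg4 (−0.043), and with array weights Psmb9 (0.0079) and Psme3ip1 (0.038). With arrays or pairs left out the differences ran from −0.16 to 0.0098 for Psma1, −0.068 to 0.11 for Psmb1, −0.32 to 0.072 for Psmb10, −0.23 to 0.012 for Psmb4, −0.19 to 0.44 for Psmb8, −0.47 to 0.63 for Psmb9, −0.22 to 0.27 for Psmc1, −0.10 to 0.072 for Psmd12, −0.11 to 0.12 for Psme3ip1, −0.035 to 0.12 for Psme4 and −0.088 to 0.040 for Psmf1. The differences of Psme3, Psmd14, Psmb5 and Psmc5 stayed negative in every alternative run (−0.50 to −0.13). These genes were picked for a low p on the same arrays, and each was lower in the knockdown in every pair. Leaving out a pair therefore could not turn their signs. In Psme3, Psmd14 and Psmc5 the groups did not overlap, so leaving out an array could not turn them either. For these genes such fits do not test the sign. In 298 refits of 20 named genes, 0 passed after adjustment, the lowest limma adjusted p being 0.175.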
